A study of Mus musculus with 6 samples.

Results

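Cathepsins are proteinases that work mainly in the acid interior of lysosomes and endosomes. The genes described here are *Ctsb*, *Ctsc*, *Ctsd*, *Ctsf*, *Ctsh*, *Ctsk*, *Ctsl*, *Ctso*, *Ctss*, and *Ctsz*, found by their symbols in a table of expression values for 55426 genes. Values are TPM, in which a gene's reads are divided by its transcript length and the sum over genes is made equal for each library. All 10 were found, and all 10 were among the 15775 genes tested, those whose mean reached 0.5 TPM. RNA came from abdominal aortas of male *Prdm16*SMKO mice (*Prdm16* fl/fl with *Myh11*-CreERT2) and male control mice, 3 libraries each. The controls carry *Myh11*-CreERT2 as the study describes its wild-type controls. The CreER cassette sits on the Y chromosome and is driven by the smooth muscle myosin gene *Myh11*, so recombination is aimed at vascular smooth muscle cells (VSMCs) and other cells of the wall keep *Prdm16*. Mice on a C57BL/6J background were 8 to 10 weeks old when given tamoxifen by gavage at 75 mg/kg/day for 5 days, and the aortas were taken 2 weeks afterward without any aneurysm model. There was 1 library per labelled replicate, n = 3 per group, and the values below are in the order of replicates 1, 2, and 3.

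Of these genes, 9 encode cysteine proteinases of the papain family and *Ctsd* encodes an aspartic proteinase. They are made as inactive precursors, sorted to lysosomes, and activated there by acid and by other proteinases, and cystatins inhibit the cysteine members. Cathepsins K, L, and S can degrade elastin and collagen when released from cells, for which they are known in the aortic wall, and cathepsin S also trims the invariant chain of MHC class II in antigen-presenting cells.

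*Ctss* and *Ctsk* are neighbors. *Ctsk* lies at chr3:95499256-95509362 and *Ctss* at chr3:95526786-95556403 (GRCm38, GENCODE M21, both on the plus strand), 17423 bp apart with 0 annotated genes between them. Their promoter sequences are shown because these adjacent genes had different values in the comparison below. The RefSeq table for GRCm38.p6 held promoter windows for 8 of the 10 genes, all but *Ctsb* and *Ctsh*. The 250 bases before the RefSeq start, from chr3:95498960-95499209 for *Ctsk* and chr3:95526536-95526785 for *Ctss*, are printed 5′ to 3′ on the plus strand, with matches to the motifs named below in capitals.
Ctsk: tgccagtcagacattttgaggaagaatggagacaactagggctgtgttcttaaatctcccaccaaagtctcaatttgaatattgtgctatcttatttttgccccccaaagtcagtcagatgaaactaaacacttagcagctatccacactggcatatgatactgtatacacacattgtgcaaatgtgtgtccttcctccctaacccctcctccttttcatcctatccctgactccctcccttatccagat
Ctss: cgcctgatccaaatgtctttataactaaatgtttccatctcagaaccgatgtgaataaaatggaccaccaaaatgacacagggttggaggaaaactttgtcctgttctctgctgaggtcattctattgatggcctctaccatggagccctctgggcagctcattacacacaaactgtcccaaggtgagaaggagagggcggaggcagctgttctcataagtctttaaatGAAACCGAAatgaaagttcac
The *Ctss* window held 1 match to the interferon response motif GAAANNGAA, 21 bases before the start, and the *Ctsk* window held none of the 5 motifs searched on both strands. These were the E-box CACGTG, the longer form TCACGTGA that contains it and is known from lysosomal genes bound by TFEB, GAAANNGAA, TTCNNNGAA (a STAT site), and GAGGAAGT (an Ets site). Over the whole windows of 300 bases, which include the first 50 transcribed bases, GAAANNGAA was in 8.56% of 32851 promoters and was also found in *Ctso*, only within the transcribed bases. GAGGAAGT was in 3.20% of promoters and was found on the reverse strand in *Ctsc*, 151 bases before the start, and in *Ctss*, where it spanned the start. TTCNNNGAA was in 8.30% of promoters and, of the 8 members with a window, only in *Ctsc*. *Ctss* and *Ctsk* windows had a GC content of 44.8% and 43.2%, below the median of 52.4% over all promoters, and held 4 and 0 CpG dinucleotides.

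The E-box CACGTG was in 7.15% of all promoters and in 3 of the 8 cathepsin windows, and TCACGTGA, in 0.974% of promoters, was found in *Ctsd* alone. These short stretches show the matches in capitals, at chr7:142387909-142387936 on the minus strand for *Ctsd*, chr19:4855076-4855101 on the plus strand for *Ctsf*, and chr13:64370741-64370766 on the minus strand for *Ctsl*.
Ctsd: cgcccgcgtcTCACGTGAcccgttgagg
Ctsf: ccccgtggtcCACGTGcctcgcgtaa
Ctsl: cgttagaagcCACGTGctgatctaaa
*Ctsd* held a further CACGTG, 245 bases before its RefSeq start. GENCODE starts these 3 genes farther upstream than the RefSeq table, so that 211 bases of the *Ctsd* window, 48 of the *Ctsl* window, and 35 of the *Ctsf* window lie in GENCODE exons. All 250 bases of the *Ctsl* window lie within the GENCODE gene. The CACGTG of *Ctsl* and the TCACGTGA of *Ctsd* are therefore downstream of the GENCODE starts. A match is a string of letters in a window and was not tested for binding.

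The other members lie at chr14:63122462-63145923 (*Ctsb*, plus strand), chr7:88278085-88310888 (*Ctsc*, plus), chr7:142375911-142388038 (*Ctsd*, minus), chr19:4855130-4860918 (*Ctsf*, plus), chr9:90054152-90076089 (*Ctsh*, plus), chr13:64359337-64370890 (*Ctsl*, minus), chr3:81932601-81956725 (*Ctso*, plus), and chr2:174427493-174439039 (*Ctsz*, minus). Reads could be shared at 4 of them. *Ctsd* shared 808 exon bases with *Gm49369* on the same strand, *Ctsl* shared 395 with the processed pseudogene *Gm49230* on the same strand, which was at 0 TPM, and 1742 with the antisense gene *Gm47123*, and *Ctsb* shared 774 and *Ctsz* 10 with coding genes on the opposite strand. *Gm47123* had a mean of 0.518 TPM, and *Gm49369* ranged from 15.1 to 64.1 TPM. Whether counting used the strand is not given in the sources used here.

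The libraries were first checked against their labels. *Prdm16* was at 33.4, 36.8, and 30.8 TPM in control and 20.8, 27.7, and 14.8 TPM in *Prdm16*SMKO mice, lower in all 3 knockout libraries, with a log2 fold change of −0.70 and an adjusted p of 0.376. The smooth muscle gene *Myh11* ranged from 1691 to 3242 TPM in control and from 1488 to 2507 TPM in *Prdm16*SMKO mice, so both groups held abundant VSMC transcripts. Mitochondrial transcripts made up 15.8% to 27.4% and transcripts of 45S ribosomal RNA 15.6% to 31.4% of TPM per library, and 20332 to 22100 genes were above 0. Sequencing gave, per the labels, 151-bp pairs, on average 40 M a library. Depth per library is unknown, which leaves counting errors and detection limits out of reach. In whole-tissue RNA, fewer cells of a type and less RNA per cell cannot be told apart.

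Cathepsin transcripts were abundant in the aorta, and their summed level overlapped between *Prdm16*SMKO and control mice. *Ctss*, the lowest member in control, had the largest fold difference of the 10, and none of the 10 passed the test. Summed TPM of the 10 genes was 849, 984, and 733 in control and 853, 935, and 839 in *Prdm16*SMKO mice (855 ± 126 and 876 ± 52.2, mean ± SD, n = 3 each), and the groups overlapped. These sums were 0.0855% and 0.0876% of all TPM. Of the 10 genes, 9 were above 5 TPM in every library, and their mean levels ranked from the 49.4th percentile (*Ctss*) to the 97.9th (*Ctsd*) of the genes tested.

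**Figure D1:**
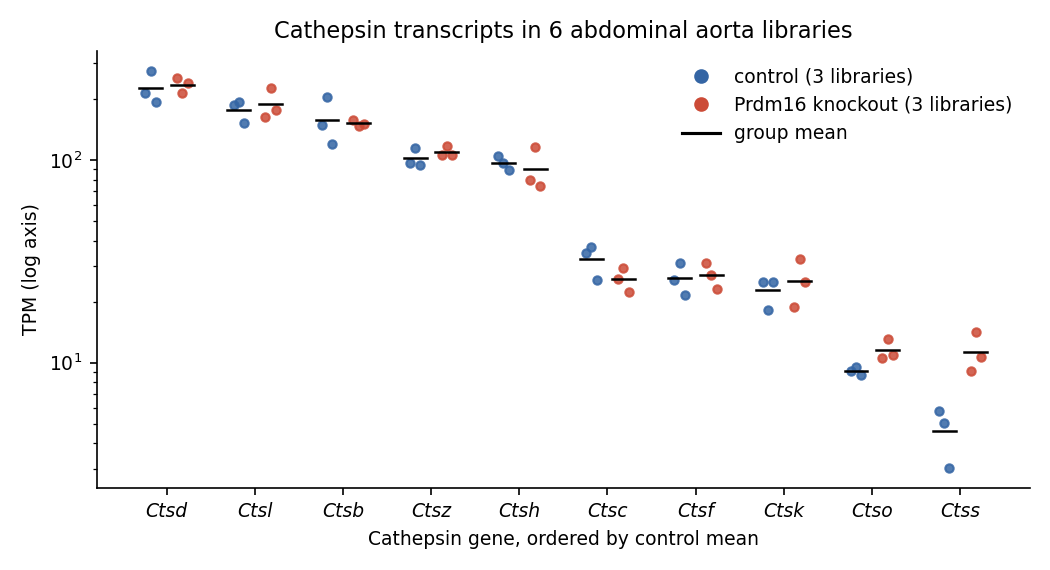
TPM on a log axis for each of the 10 cathepsin genes, ordered by control mean, with 1 point per library (blue, 3 control; red, 3 *Prdm16*SMKO) and a black line at each group mean. The groups did not overlap in *Ctss* and *Ctso*, at the right, and overlapped in the other 8 genes.

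In control mice the order of mean levels was *Ctsd*, *Ctsl*, *Ctsb*, *Ctsz*, *Ctsh*, *Ctsc*, *Ctsf*, *Ctsk*, *Ctso*, and *Ctss*. The library ranges of *Ctsl* and *Ctsb*, of *Ctsz* and *Ctsh*, of *Ctsc* and *Ctsf*, and of *Ctsf* and *Ctsk* overlapped, and those of the other neighbors did not. *Ctso* and *Ctss* were apart in control but overlapped in *Prdm16*SMKO mice, where *Ctsd* and *Ctsl* also overlapped and *Ctsf* ranked just above *Ctsc*.

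None of the 10 genes was called at an adjusted p under 0.05, where 0.355% of all genes tested were called (56 of 15775, by limma with Benjamini-Hochberg adjustment). At an unadjusted p under 0.05 there was 1 of 10, *Ctss*, against 8.74% of all genes. The libraries of the 2 groups did not overlap in 2 of 10 genes, *Ctss* and *Ctso*, against 12.8% of all genes, and both were higher in *Prdm16*SMKO mice, against 7.02% of all genes. With 10 genes these counts lie too near the background to be read as a result about cathepsins as a group. Of the 10 log2 fold changes 7 were above 0 and 3 below, where 54.2% of all genes were above 0, and their median was 0.07 where that of all genes was 0.02. The sign of *Ctsb*, at −0.02, turned under quantile normalization.

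**Figure D2:**
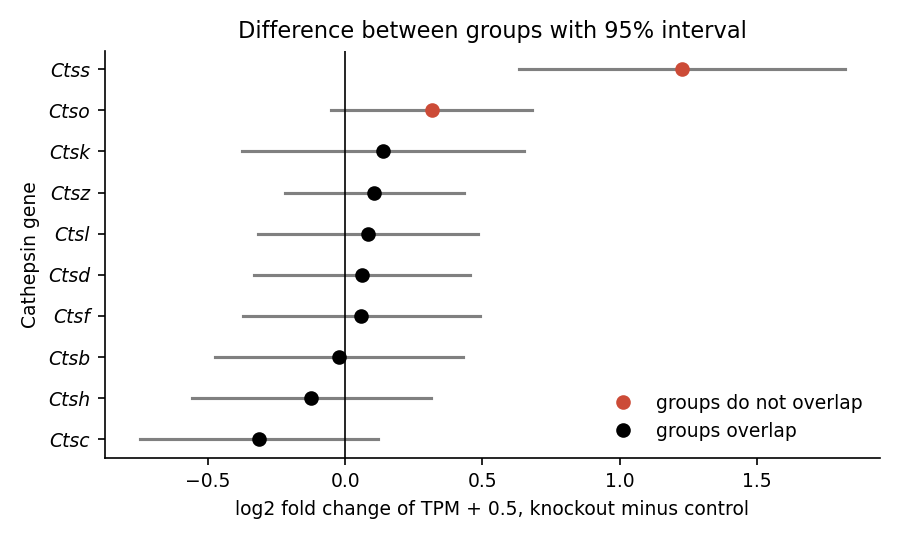
Log2 fold change of TPM + 0.5 in *Prdm16*SMKO against control mice for each cathepsin gene (points) with its 95% interval from limma (lines), ordered by size. The interval of *Ctss*, 0.63 to 1.82, lies above 0, and those of the other 9 genes include 0.

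*Ctss* encodes cathepsin S, an elastin-degrading proteinase that stays active at neutral pH and is made mostly in antigen-presenting cells. *Ctss* was at 5.77, 5.05, and 3.02 TPM in control and 9.14, 14.1, and 10.6 TPM in *Prdm16*SMKO mice. Every *Prdm16*SMKO library was above every control library. The means were 4.61 ± 1.43 and 11.3 ± 2.55 TPM (SD, n = 3), a ratio of 2.45. Its log2 fold change was 1.23 (SE 0.26, 95% interval 0.63 to 1.82). Limma gave p = 0.00123 and an adjusted p of 0.118, and the exact permutation test gave p = 0.1, the smallest that 3 against 3 libraries allow. *Ctss* ranked 163rd by p among all genes tested and did not pass the threshold. The adjusted p was between 0.0449 and 0.335 over 17 alternative settings, under the threshold only with array weights, and the log2 fold change was between 0.96 and 1.39.

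**Figure D3:**
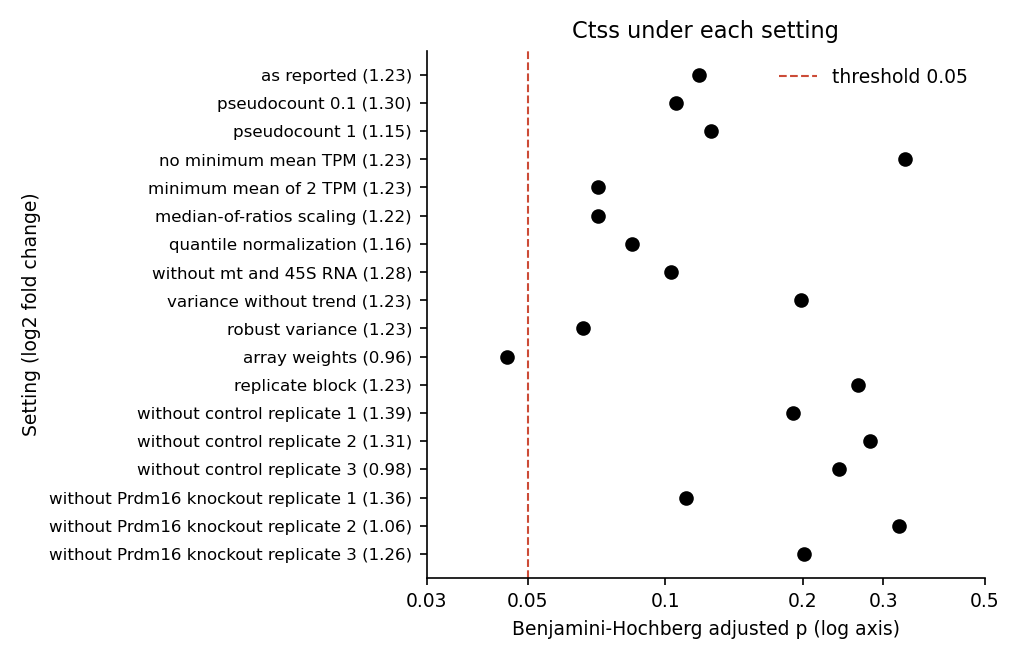
Benjamini-Hochberg adjusted p of *Ctss* (log axis) as reported and under each of 17 alternative settings, with its log2 fold change in parentheses and the threshold as a dashed line. Only array weights, at 0.0449, put it under the threshold, and the log2 fold change was above 0 in every setting.

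*Ctsk* encodes cathepsin K, a strong elastinase and collagenase best known from osteoclasts. It was at 24.9, 18.3, and 25.0 TPM in control and 18.7, 32.4, and 25.0 TPM in *Prdm16*SMKO mice, and the groups overlapped. The means were 22.7 ± 3.83 and 25.4 ± 6.85 TPM, with a log2 fold change of 0.14 (95% interval −0.38 to 0.65, adjusted p = 0.953). The ratio of *Ctss* to *Ctsk* was 0.232, 0.276, and 0.121 in control and 0.488, 0.436, and 0.425 in *Prdm16*SMKO libraries. The ratio was thus higher in each knockout library than in any control library, with an exact permutation p of 0.1. *Ctss* alone also separated the groups, so this ratio largely restates *Ctss*.

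*Ctsl* encodes cathepsin L, a broad endopeptidase of the lysosome. It was at 186, 192, and 152 TPM in control and 162, 225, and 177 TPM in *Prdm16*SMKO mice, with overlap. *Ctsl* had a log2 fold change of 0.08 (95% interval −0.32 to 0.48, adjusted p = 0.967). *Ctsk*, *Ctsl*, and *Ctss* together summed to 204 ± 21.2 TPM in control and 225 ± 42.3 TPM in *Prdm16*SMKO mice, and the groups overlapped. *Ctsl* made up most of these sums and *Ctss* the smallest share.

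The exopeptidases cut from the ends of peptides. *Ctsb* encodes cathepsin B, which removes C-terminal dipeptides and also cuts within chains, and was at 148, 205, and 120.4 TPM in control and 157, 147, and 151 TPM in *Prdm16*SMKO mice. Control libraries spanned a wider range (SD 43.0) than knockout libraries (SD 5.00), and the latter lay inside it. *Ctsb* had a log2 fold change of −0.02 (95% interval −0.47 to 0.43, adjusted p = 0.994).

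*Ctsc* encodes cathepsin C, or dipeptidyl peptidase I, which activates the serine proteinases of neutrophils, mast cells, and cytotoxic T cells. It was at 34.6, 37.1, and 25.4 TPM in control and 25.75, 29.3, and 22.2 TPM in *Prdm16*SMKO mice. It had the lowest log2 fold change of the family, −0.32 (95% interval −0.75 to 0.12, adjusted p = 0.760), and the groups overlapped through control replicate 3.

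*Ctsh* encodes cathepsin H, an aminopeptidase. It was at 104, 96.1, and 89.4 TPM in control and 79.4, 116, and 74.5 TPM in *Prdm16*SMKO mice, where replicate 2 was above and replicates 1 and 3 below all control libraries. The log2 fold change was −0.12 (95% interval −0.56 to 0.31, adjusted p = 0.950).

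*Ctsz* encodes cathepsin Z, also called X, a carboxypeptidase. It varied least of all members, at 96.9, 114, and 94.9 TPM in control and 106, 117, and 106 TPM in *Prdm16*SMKO mice. Its coefficient of variation over the 6 libraries was 8.38%, where that of *Ctss* was 51.6%. The log2 fold change was 0.11 (95% interval −0.22 to 0.43, adjusted p = 0.935).

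*Ctsf* and *Ctso* encode cysteine cathepsins that are less studied. *Ctsf* was at 25.6, 31.2, and 21.5 TPM in control and 31.2, 27.2, and 23.0 TPM in *Prdm16*SMKO mice, with overlap, and its log2 fold change was 0.06 (95% interval −0.37 to 0.49, adjusted p = 0.985). *Ctso* was at 9.05, 9.52, and 8.73 TPM in control and 10.5, 13.1, and 10.9 TPM in *Prdm16*SMKO mice. The *Ctso* groups did not overlap, and the ratio of means was 1.26. The log2 fold change of *Ctso* was 0.31 (SE 0.16, 95% interval −0.05 to 0.68), with p = 0.0844, an adjusted p of 0.681 by limma, and an exact permutation p of 0.1.

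*Ctsd* encodes cathepsin D, the aspartic member and the most abundant of the 10. It was at 214, 276, and 193 TPM in control and 253, 213, and 239 TPM in *Prdm16*SMKO mice, with overlap. The log2 fold change was 0.06 (95% interval −0.33 to 0.45, adjusted p = 0.981). Added to *Gm49369*, with which it shares exons, it came to 267 ± 64.9 TPM in control and 275 ± 1.7 TPM in *Prdm16*SMKO mice. The groups overlapped in that sum as well.

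*Ctsd*, *Ctsl*, and *Ctsb* were the main transcripts of the pool in both groups. They held 26.6%, 20.7%, and 18.4% of the summed TPM in control and 26.8%, 21.5%, and 17.3% in *Prdm16*SMKO mice. *Ctss* held 0.539% and 1.29%. *Ctsc* held 3.78% and 2.94%, *Ctsk* 2.65% and 2.90%, and *Ctso* 1.06% and 1.31%.

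**Figure D4:**
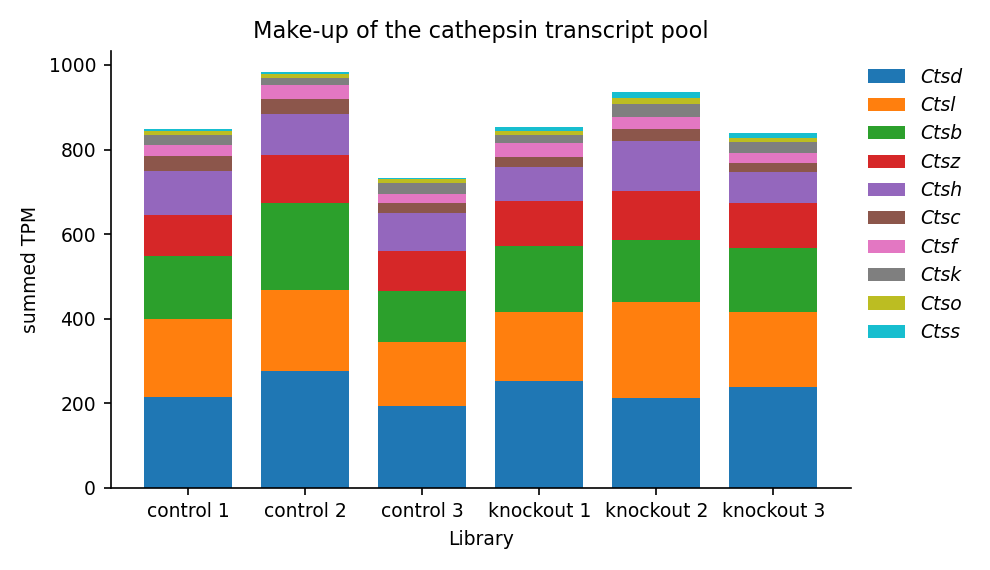
Summed TPM of the 10 cathepsin genes in each library, stacked by gene. The sums run from 733 (control replicate 3) to 984 (control replicate 2), the bars of both groups overlap, and *Ctss* is the thin top segment.

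Single libraries moved several members together. Control replicate 3 was the lowest library in 7 of 10 genes, control replicate 2 the highest in 4, and *Prdm16*SMKO replicate 2 the highest in 6. The median-of-ratios scaling factor, from all genes above 0 in every library, was also lowest for control replicate 3 (0.864). It was highest for control replicate 2 (1.13), so these control extremes were not particular to cathepsins. Over the 6 libraries, log2 TPM of *Ctsb* followed that of *Ctsd* most closely (Pearson r = 0.92) and *Ctss* followed *Ctso* (r = 0.93), while *Ctsk* and *Ctsd* had the lowest r of any pair, −0.74. These are descriptions over 6 libraries that share their group and their composition.

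Among natural inhibitors, 5 of 18 listed genes passed the minimum and none was called. *Cst3* encodes cystatin C, the main secreted inhibitor of cysteine cathepsins, and was at 1221, 1319, and 1186 TPM in control and 1476, 1544, and 1385 TPM in *Prdm16*SMKO mice. Every knockout library was above every control library, by 1.18 times in the means, with a log2 fold change of 0.24 and an adjusted p of 0.779. *Cstb*, the cytosolic stefin B, was at 49.4, 56.3, and 44.98 TPM in control and 48.0, 49.0, and 45.7 TPM in *Prdm16*SMKO mice. *Ctla2a*, related to a cathepsin propeptide, had the highest log2 fold change, 1.01 (adjusted p = 0.722), through the 81.3 TPM of *Prdm16*SMKO replicate 2 where the other libraries were at 9.58 to 21.7. The summed inhibitors were 1419 ± 81.8 TPM in control and 1682 ± 133 TPM in *Prdm16*SMKO mice without overlap. Most of each sum was *Cst3*, with means of 1242 and 1468 TPM, so the sum and the ratio below largely restate *Cst3*. The next largest part was the serpin gene *Serpinb6a* (109 and 124 TPM), which is not a cystatin. Transcripts of the 9 cysteine cathepsins were 0.456, 0.469, and 0.399 times those of the inhibitors in control and 0.360, 0.396, and 0.385 times in *Prdm16*SMKO libraries. The ratio was lower in each knockout library (exact permutation p = 0.1), and in the means its numerator, 628 ± 84.4 and 641 ± 70.6 TPM, moved less than its denominator.

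*Eln*, which encodes the tropoelastin that cathepsins K, L, and S can cleave, was at 2531, 3550, and 1988 TPM in control and 757, 941, and 597 TPM in *Prdm16*SMKO mice. It fell by 1.80 on the log2 scale (adjusted p = 0.0312), a call that was lost when any 1 control library or *Prdm16*SMKO replicate 3 was left out (adjusted p = 0.0652 to 0.114), and also without a minimum level, with untrended variances, or with a replicate block (0.0772 to 0.170). The summed *Ctsk*, *Ctsl*, and *Ctss* were 0.0789 ± 0.0159 times *Eln* in control and 0.299 ± 0.0531 times in *Prdm16*SMKO mice. The ratio was higher in each knockout library, while the cathepsin sums in its numerator overlapped. Matrix-degrading proteinases of other families did not pass the test in any of the 5 of 8 genes measured above the minimum, with a median log2 fold change of −0.11. The list was not limited to genes known to cut elastin, and the study calls ADAM12 a gelatinase. *Mmp2* encodes gelatinase A and had −0.11, *Mmp9* encodes gelatinase B and had 0.22, and *Mmp14* encodes a membrane-type matrix metalloproteinase and had −0.18. *Prtn3*, neutrophil proteinase 3, was at −0.45 and the metalloproteinase gene *Adam12* at 0.12 (adjusted p = 0.898 and 0.989). *Adam12* was near the minimum, at 0.94, 0.95, and 0.43 TPM in control and 0.51, 0.35, and 2.41 TPM in *Prdm16*SMKO mice. Only *Prdm16*SMKO replicate 3 was above the control libraries. *Mmp12*, macrophage elastase, did not reach the minimum and was at 0.08, 0.11, and 0.20 TPM in control and 0.39, 0.37, and 0.52 TPM in *Prdm16*SMKO mice.

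Other lysosomal genes were tested beside the cathepsins. None of 33 lysosomal enzyme genes was called, 16 had a log2 fold change above 0 and 17 below, and the median was −0.02. *Lgmn*, encoding the legumain that processes several cathepsin precursors, was at −0.04, *Lipa*, lysosomal acid lipase, at 0.30, and *Smpd1*, acid sphingomyelinase, at −0.24. None of 24 genes of the lysosomal membrane and its activators was called, with 18 above 0 and a median of 0.04. *Atp6v1b2*, a subunit of the proton pump that acidifies lysosomes, had the highest log2 fold change of those above 5 TPM, 0.45, through the 36.1 TPM of *Prdm16*SMKO replicate 1, and *Cd63*, a lysosomal tetraspanin, the lowest, −0.27. Among 12 genes for sorting to the lysosome and for its transcription none was called, with a median of −0.01. *Gga3*, an adaptor for lysosomal sorting, was at 0.61 (adjusted p = 0.799), and *Tfeb*, the transcription factor of lysosomal genes, was at −0.15 (adjusted p = 0.919). Of 13 other cathepsin genes, 10 were at 0 in all libraries and 1 passed the minimum. This was *Ctsa*, the serine carboxypeptidase that protects lysosomal galactosidase, at −0.06.

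Class II antigen presentation, the pathway that cathepsin S serves, had 9 of 11 listed genes above the minimum. None was called, 5 were under an unadjusted p of 0.05 (8.74% of all genes), and in 6 the groups did not overlap, all higher in *Prdm16*SMKO mice (7.02% of all genes). *Cd74* encodes the invariant chain that cathepsin S trims, and was at 43.5, 37.2, and 27.0 TPM in control and 65.6, 125, and 90.3 TPM in *Prdm16*SMKO mice. Its log2 fold change was 1.35 (adjusted p = 0.0906), and it was called when *Prdm16*SMKO replicate 1 was left out (adjusted p = 0.0373) and with array weights (0.0317). *H2-Ab1*, a class II chain, had 1.38 (adjusted p = 0.1102, 0.0297 without that library, and 0.0303 with array weights). *Ifi30*, the endosomal thiol reductase of this pathway, was the 1 gene below 0, at −0.15. The median over the 9 genes was 0.58 beside 0.02 for all genes. That *Ctss* and class II genes were both higher in these libraries had been seen in earlier results of the same data and is no independent support.

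Macrophage markers were measured beside *Ctss*, and none of the 20, which all passed the minimum, was called. Of the 20, 18 had log2 fold changes above 0 (all but *Mertk* and *Fcgr1*, where 54.2% of all genes were above 0), 9 were under an unadjusted p of 0.05 (8.74% of all genes), and the median was 0.68 (0.02 over all genes). In 5 of the 20 the groups did not overlap, all higher in *Prdm16*SMKO mice (7.02% of all genes). The summed level of the 20 markers was 205, 184, and 136 TPM in control and 200, 343, and 259 TPM in *Prdm16*SMKO mice. These sums overlapped (exact permutation p = 0.2), and no marker of the list was at 0. *Cd68*, a lysosomal membrane protein of macrophages, was at 3.02, 3.19, and 2.02 TPM in control and 3.44, 8.29, and 4.26 TPM in *Prdm16*SMKO mice, without overlap. *Adgre1*, which encodes F4/80, had a log2 fold change of 0.75 and *Lyz2*, lysozyme, 0.80 (adjusted p = 0.516 and 0.437).

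Set against these markers, *Ctss* was higher in *Prdm16*SMKO mice without overlap by their mean. By its ratios to *Cd68* and *Lyz2* it was higher in the means, with overlap. Ratios to the other single markers were not computed. Log2 TPM of *Ctss* minus the mean log2 TPM of the 20 markers was 0.01, 0.01, and −0.23 in control and 0.65, 0.53, and 0.60 in *Prdm16*SMKO libraries, a difference of 0.66 without overlap. The ratio of *Ctss* to *Cd68* was 1.91, 1.58, and 1.495 in control and 2.66, 1.703, and 2.50 in *Prdm16*SMKO mice, with overlap. Its ratio to *Lyz2* ranged from 0.0984 to 0.171 in control and from 0.164 to 0.215 in *Prdm16*SMKO mice, also with overlap. Against the fibroblast and VSMC markers *Ctss* was higher by 1.16 and 1.38 without overlap. The other 9 cathepsins were all lower relative to the macrophage markers, from −0.25 (*Ctso*) to −0.88 (*Ctsc*), and *Ctsc*, *Ctsh*, and *Ctsl* were lower without overlap. The mean log2 level of these markers was itself 0.56 higher in *Prdm16*SMKO mice, with overlap. Each value against it is a gene's own log2 fold change less 0.56, so any gene that rose by less comes out lower. The share of all genes lower without overlap on this measure was not computed. The part of macrophages in the *Ctss* difference was not tested.

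**Figure D5:**
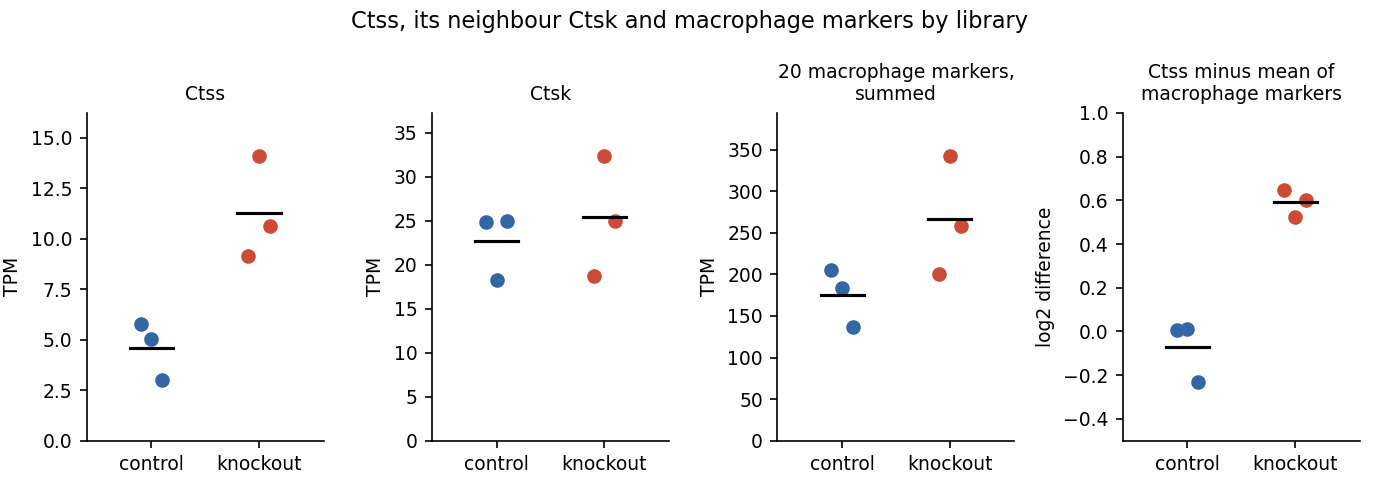
*Ctss* and *Ctsk* in TPM, the summed TPM of 20 macrophage markers, and log2 TPM of *Ctss* minus the mean log2 TPM of those markers, with 1 point per library (blue, control; red, *Prdm16*SMKO) and lines at group means. Groups are apart in the first and last panels and overlap in the 2 between them.

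Dendritic cells and B cells also use cathepsin S. Summed dendritic cell markers were 6.75 to 10.4 TPM in control and 10.5 to 13.03 TPM in *Prdm16*SMKO mice, without overlap, but most of each sum was *Zbtb46*, and the mean log2 level of the dendritic cell markers overlapped (exact permutation p = 0.2). Summed B cell markers were 3.57 to 12.6 and 8.50 to 14.5 TPM, with overlap. In both lists 4 of 8 markers passed the minimum and none was called. *Cd79a*, a chain of the B cell receptor, was at 0 in control replicates 2 and 3. Fibroblast markers, 12 of 12 tested, had a median log2 fold change of 0.08 and VSMC markers, 12 of 12 tested, −0.27 (8 below 0 and 4 above), with none called in either list. *Pdgfra*, a fibroblast receptor, was at 0.10 and *Acta2*, smooth muscle actin, at −0.47. Among VSMC markers the lowest was *Sost*, at −0.87, and the highest the smooth muscle actin *Actg2*, at 0.87, both without overlap and with adjusted p of 0.170 and 0.235. *Cnn1* was also lower without overlap (−0.48), and the groups overlapped in the other VSMC markers. Over all genes, the groups did not overlap in 12.8%. Of 10 endothelial markers 8 were above 0 and 2 below, with a median of 0.34 and none called. *Vwf* was higher (0.90) and *Erg* lower (−0.50) without overlap, with adjusted p of 0.435 and 0.376. The groups overlapped in the other endothelial markers. *Pecam1* was at 0.50 through the 199.98 TPM of *Prdm16*SMKO replicate 2, the library that was also highest in *Ctss*. The part of these cells was not tested.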

How the data were processed

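RNA-seq of abdominal aortas was deposited by the authors as TPM, rounded to 2 decimals, for 55426 genes in 6 libraries. The submitters' processing notes name bcl2fastq, cutadapt 2.3, FastQC 0.11.8, STAR 2.7.8a, RSEM 1.3.3, MultiQC 1.7 and GRCm38. TPM is relative, so abundant transcripts can move all others, and it keeps no depth. Libraries were grouped by their labels, and no 2 were identical. The labels number the replicates without tying them to mice, so p-values measure the spread between these libraries, which may be technical.

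Expression was log2(TPM + 0.5), and fold changes on this scale understate those of low genes. Genes whose mean reached 0.5 TPM were compared by limma 3.58.1 (R 4.3.3) with trended variances and two-sided Benjamini-Hochberg adjusted p-values, with no covariate, and called under 0.05. The fit was tested on simulated data. Single values had an exact permutation test. Tables were made in Python 3.11.15 with pandas 2.3.3, and figures with matplotlib 3.10.9.

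Members and lists were chosen with earlier results of these data known. Named were all members, called genes and the highest and lowest gene (mean of at least 5 TPM) of each pathway list, preset genes (*Cst3*, *Cstb*, *Lgmn*, *Cd74*, *Ifi30*, 7 cell markers, *Prdm16*, *Eln*). *Mmp9*, *Mmp12*, *Prtn3*, *Adam12*, *Mertk*, *Fcgr1*, *Cd79a*, *Zbtb46*, *Kit*, *Sost*, *Actg2*, *Cnn1*, *S100a8*, *Serpinb6a*, *Vwf*, *Erg*, and genes sharing exons were named after their values were seen. The motifs GAAANNGAA, TTCNNNGAA, and GAGGAAGT were added after the data were seen. The 17 alternatives are given with the limits.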

Additional observations from a re-analysis of the deposited data

How the results depend on the processing

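The alternatives were pseudocounts of 0.1 and 1, no minimum, a minimum of 2 TPM, median-of-ratios scaling, quantile normalization, TPM without mitochondrial and 45S ribosomal RNA, untrended or robust variances, array weights, a replicate block, and each library left out. No cathepsin was called in 16 of 17. With array weights 1 was called, *Ctss* (log2 fold change 0.96, adjusted p = 0.0449). Without control replicate 3 the median of the members was −0.04, without control replicate 2 it was 0.19, and the other alternatives lay between. Of 170 log2 fold changes 160 kept their direction, and *Ctss*, *Ctso*, *Ctsc*, *Ctsh*, and *Ctsz* did so in all 17. *Ctsb* turned to 0.0172 under quantile normalization and to 0.0222 with array weights. With 1 library left out, *Ctsb* ranged from −0.20 to 0.18, *Ctsk* from −0.0522 to 0.34, *Ctsd* from −0.0514 to 0.21, *Ctsf* from −0.0700 to 0.19, and *Ctsl* from −0.0531 to 0.18. The cause was not tested.

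The number of all genes called, 56 as reported (29 higher, 27 lower), was 10 without a minimum, 153 with median-of-ratios scaling (60 higher, 93 lower), 129 with quantile normalization (46 higher, 83 lower), 123 without mitochondrial and 45S RNA (55 higher, 68 lower), 33 without a trend, 112 with robust variances, 494 with array weights, and 5 to 61 with 1 library left out. Same-numbered libraries deviated with correlations of −0.13, −0.11, and 0.02, and differently numbered ones with −0.17 to 0.24. With 3 libraries a group, these values cannot tell whether the numbers mark pairs. The replicate block left 4 genes called, 0 cathepsins, and a median of 0.07 for the members, with an adjusted p of 0.264 for *Ctss*. Depth is unknown, and with 3 libraries a group no single value can reach an exact permutation p under 0.1.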

Other observations

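Of 19 listed genes that build the elastic fibre, the substrate of cathepsins K, L, and S, 18 were above the minimum and 1 was called, *Eln*, lower in *Prdm16*SMKO mice. The log2 fold change was below 0 in 14 and above 0 in 4, with a median of −0.21. In 6 genes the knockout was lower and in 2 higher without overlap, where the groups did not overlap in 12.8% of all genes. *Efemp1*, which encodes fibulin-3, had the highest, with 3.08, 4.13, and 3.73 TPM in control and 7.23, 11.4, and 7.87 TPM in *Prdm16*SMKO mice (log2 fold change 1.153, adjusted p = 0.0841).

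Mast cells store chymase and tryptase, serine proteinases whose chymase is activated by cathepsin C. Of 6 of 8 mast cell markers above the minimum, 4 were higher and 1 lower at an unadjusted p under 0.05, where 8.74% of all genes were under it, and none was called. *Tpsb2*, a tryptase named after its values were seen, was at 0.32, 0.79, and 0.60 TPM in control and 2.26, 4.28, and 6.22 TPM in *Prdm16*SMKO mice (log2 fold change 2.08, adjusted p = 0.0638). Summed mast cell markers overlapped, at 14.5 to 22.2 TPM in control and 15.6 to 28.7 TPM in *Prdm16*SMKO mice, with *Kit*, the marker that was lower by that test, the largest part of the control sums. Their mean log2 level, which weights markers equally, was 0.31 to 0.74 and 0.81 to 1.47, without overlap (exact permutation p = 0.1). Summed T cell markers were 0.820 to 4.16 TPM and 4.28 to 7.36 TPM, and neutrophil markers 0.700 to 1.47 TPM and 1.68 to 7.76 TPM, both without overlap (exact permutation p = 0.1 for each). Only 3 of 8 T cell markers and 2 of 10 neutrophil markers passed the minimum, and none was called. The other markers had means below the minimum, with 1 neutrophil marker at 0 in every library. *S100a8* was among them but reached 2.12 TPM in *Prdm16*SMKO replicate 2. Of 8 adipocyte markers 7 were above 0 with a median of 0.91, and of 6 skeletal muscle markers above the minimum 4 were above 0 with a median of 0.45, with none called in either list. Single libraries stood apart in both. Summed adipocyte markers were 1141, 790, and 600 TPM in control and 694, 593, and 2601 TPM in *Prdm16*SMKO mice, and skeletal muscle markers were 17.2, 11.0, and 6.19 TPM and 75.0, 5.77, and 3.3 TPM.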
